A study of Mus musculus with 3 samples.

Results

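The late phase of osteoclast formation was described by comparing gene signals in a mouse bone marrow culture given RANKL for 72 h with those in a culture given RANKL for 24 h. Each time had 1 Affymetrix array. The comparison covers all 12393 genes that had a probe set annotated with a single gene symbol, and 8391 of them were above the detection floor at 24 or 72 h. Another array, from a culture harvested at 0 h of RANKL, served to separate what was gained or lost only after the first day from what had already moved by 24 h. All 3 cultures came from C57/BL6 marrow grown for 3 days with human M-CSF (hM-CSF, 50 ng/ml), after which the labels call the cells macrophages, and RANKL was the human protein (hRANKL) at 150 ng/ml. The labels name the stages Precursor at 0 h, Differentiating precursor at 24 h and Osteoclast at 72 h. Cultures of the same age without RANKL were not part of the series, so RANKL and time spent in culture cannot be told apart, and whether the cultures came from 1 animal or a pool is not given in the sources used here.

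RANKL is a TNF family cytokine that binds RANK on macrophage lineage cells and, through NF-kB, AP-1 and NFATc1, commits them to the osteoclast fate. Committed cells then leave the cell cycle, fuse into multinucleated cells and build an actin ring that seals an area of bone. Inside that ring a proton pump and a chloride channel acidify the surface, and secreted proteases such as cathepsin K digest the collagen. The first day of RANKL is thus mostly known for commitment and the later days for fusion and the resorptive machinery.

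Signals are MAS5 intensities in arbitrary units, put on a common scale by subtracting from each array its median log2 value over gene probe sets. The deposited medians were 60.9 at 24 h and 62.7 at 72 h, a log2 shift of 0.04, and 36.7 at 0 h. On the deposited scale every first-day log2 difference given below would be 0.73 higher, and every difference of 72 h against 0 h 0.77 higher, for signals above the floor. Scaled signals under 29.6, the 40th percentile of the pooled gene probe sets, were set to that floor, and a gene with a side at the floor has only a bound ("at least"). There were no replicates, so no test was possible and no p-value is given. The only error at hand is technical, the SD between probe sets of the same gene, which was 0.36 in log2 units between 24 and 72 h (2785 genes), or a factor of 1.28. It was 0.41 in dimmer and 0.31 in brighter genes, it leaves out the variation between cultures, and it applies to every single late difference of genes above the floor at both times. For 24 h against 0 h the same SD was 0.41 over all such genes, or a factor of 1.33. Neither value covers the bounds of genes with a side at the floor. The ratio of 3' to 5' control probe sets, a measure of RNA quality, was 1.381 at 24 h and 1.2005 at 72 h for actin and 0.975 and 0.749 for Gapdh, and its part in the differences was not tested.

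Between 24 and 72 h, 581 genes (6.92% of the 8391) were called higher, meaning a log2 difference of at least 1 (2-fold), and 839 genes (10%) were called lower. Of the higher genes, 448 (5.34%) had changed by less than 2-fold on the first day and are called gained only after the first day. Of the lower genes, 431 (5.14%) were likewise lost only after the first day, or 211 on the deposited scale, where the first-day differences are higher. The first-day and the late difference both use the 24 h array, so an error in that array enters both. Of the gained genes 90 came up from the floor at 24 h, and 39 of the lost genes were at the floor at 72 h; such genes entered the comparison through their high side alone. The size of 4-fold was reached by 82 gained and 35 lost genes. At 72 h, 342 of the gained genes were also at least 2-fold above their 0 h signal, but only 202 of the lost genes were at least 2-fold below it. The median late difference of all measured genes was -0.14. That median and the shares of 6.92% higher and 10% lower are the values to set beside each list count below. On the gained side Map7 was just inside the threshold at 1.0017 and Tmem38b just outside at 0.9998, and on the lost side Peli2 was inside at -1.0012 and C2cd3 outside at -0.9997. With 1 array a side, genes this close to the threshold are within the technical error of each other.

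**Figure D1:**
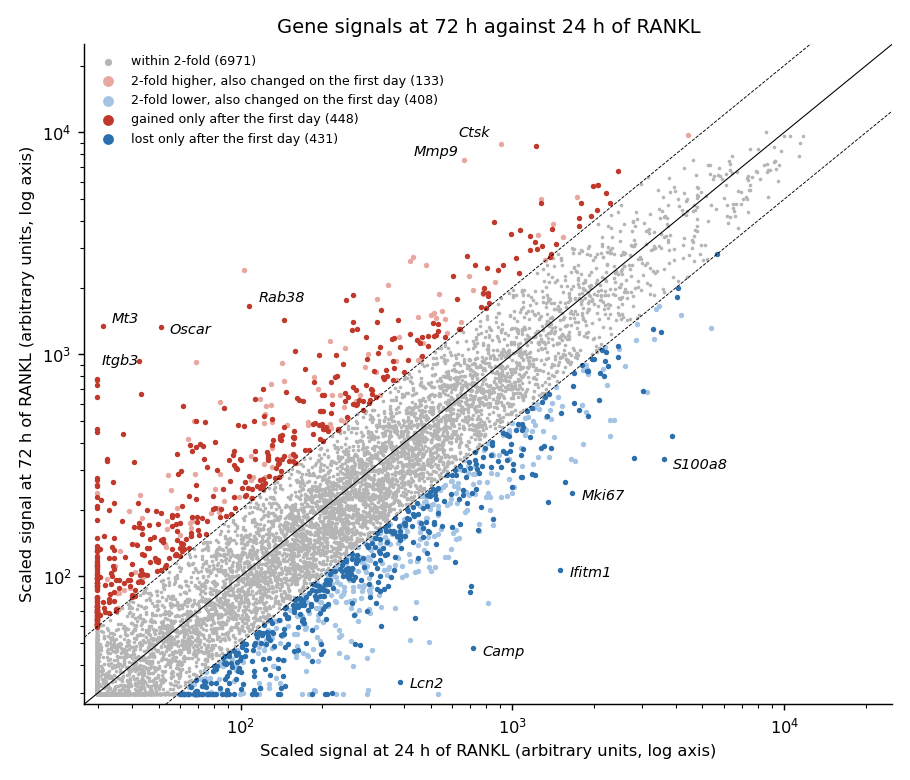
Scaled signal of the 8391 measured genes at 24 h (x axis) and 72 h of RANKL (y axis), both on log axes, with values under the floor drawn at it; dashed lines mark 2-fold. Dark red points are the 448 genes gained only after the first day, dark blue points the 431 lost only after it, and Mt3 (31.2 at 24 h, 1338 at 72 h) and Camp (716 and 47.5) have the highest and lowest differences of genes measured on both sides.

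Of the genes measurable at both 24 and 72 h, the highest late difference was that of Mt3, a metallothionein that binds zinc and copper. Its signals were 39.8, 31.2 and 1338 in the order 0, 24 and 72 h, a 42.9-fold difference after the first day. Oscar, the osteoclast-associated receptor that gives a co-stimulatory signal through an ITAM adaptor, was under the floor at 0 h, at 50.8 at 24 h and at 1335 at 72 h (26.3-fold). Both of its measured probe sets were called higher. Rcan2, an inhibitor of the calcineurin phosphatase that activates NFAT, stood at 42.4 at 24 h and 937 at 72 h (22.1-fold). Rab38, a small GTPase of lysosome-related organelles, was at 95.8, 108 and 1652 at the 3 times (15.4-fold). Steap4, a metalloreductase, was at 43.2 and 663 (15.3-fold), and Cpe, a carboxypeptidase of secretory granules, at 36.8 and 440 (11.9-fold). Each of these 6 genes had a first-day difference within 2-fold, so most of its 72 h signal appeared after the first day. Denn2b, a Rab exchange factor, was 10.5-fold higher (32.4 to 339) and Serpind1, a serine protease inhibitor, 10.3-fold (32.2 to 331), with 24 h signals just above the floor.

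Other genes came out of the floor. Itgb3, the integrin beta 3 chain that pairs with alpha v in the sealing zone, was at 36.9 at 0 h, under the floor at 24 h and at 774 at 72 h, at least 26.2-fold higher than at 24 h. Calcr, the receptor for the hormone calcitonin, had no signal above the floor until 72 h, when it was at 463 (at least 15.7-fold). Ckmt1, a mitochondrial creatine kinase, reached 448 from the floor (at least 15.1-fold), and both of its measured probe sets agreed. Gzmd and Gzme, granzymes best known from cytotoxic lymphocytes, reached 765 and 645, and Klra17, an NK receptor family member, 725. These 3 belong to families of near-identical genes, so the family member that carried the signal is uncertain. The T and NK cell list, which holds other genes of those cells, had 3 measured members of 22 on the array and 1 called higher, Cd5 (55.7 to 133). H2ac19, a histone gene of a repeated cluster, was at 144 and 1428 (9.92-fold) and carries the same uncertainty.

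Continuing genes were those called higher on the first day and again after it. Akr1c18, an aldo-keto reductase that inactivates progesterone, went from under the floor at 0 h to 103 at 24 h and 2403 at 72 h (23.3-fold late). Edil3, a secreted ligand of integrins, was at 68.6 and 924 (13.5-fold). Myo1d, an unconventional myosin, was at 102, 432 and 2739 (6.34-fold late). Cd200, a membrane glycoprotein of osteoclasts, was at 51.3, 118 and 627 (5.30-fold late).

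The osteoclast markers fit the label of the 72 h array. Acp5, Ctsk, Mmp9, Calcr, Itgb3, Car2, Ocstamp and Oscar were all at least 2-fold higher at 72 than at 24 h, and their 72 h signals lay between 463 (Calcr) and 9699 (Acp5). The macrophage markers had mostly moved earlier. Adgre1 was at 2908, 561 and 413, Mrc1 at 3911, 183 and 109 and Fcgr1 at 747, 63.2 and 64.6, all within 2-fold after the first day. Csf1r, the M-CSF receptor, was at 7485, 5786 and 6383, so it stayed high throughout. Cx3cr1, the fractalkine receptor, was the macrophage marker of this set with a late call, at 1772, 420 and 51.6 (8.15-fold lower late), although its other measured probe set differed by -0.63 on the log2 scale. In RNA from a whole culture, fewer cells of a type and less RNA per cell cannot be told apart.

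The resorption machinery was higher at 72 than at 24 h in most of its genes. Of 18 measured effectors, 13 were called higher and 0 lower; the median log2 difference was 1.46 against -0.14 over all measured genes, and 7 were gained only late. Ctsk, the collagen-degrading cathepsin K, was at 175, 910 and 8856 (9.73-fold late). Mmp9, a gelatinase, was at 175, 665 and 7535 (11.3-fold late). Both had also been called higher on the first day, as had Acp5, the tartrate-resistant phosphatase (1023, 4417 and 9699, 2.20-fold late). Slc9b2, a sodium/proton exchanger, was at 105, 483 and 2519 (5.22-fold), Car2, the carbonic anhydrase that supplies protons, at 75.4, 522 and 1457 (2.79-fold), and Slc4a2, the basolateral bicarbonate exchanger, at 342, 717 and 1945 (2.71-fold).

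Gained only late were genes of the acidification and vesicle steps. Clcn7, the chloride/proton antiporter of the ruffled border, was at 161, 158 and 1031 (6.51-fold), with both measured probe sets called. Snx10, a sorting nexin needed for ruffled border formation, was at 643, 1279 and 4781 (3.74-fold), and its first-day log2 difference of 0.99 was just inside the limit. Tcirg1, the osteoclast form of the pump's a subunit, was at 1262, 1404 and 3663 (2.61-fold). Mcoln1, a lysosomal calcium channel, was at 342, 201 and 406, a late difference of 2.03-fold. Effectors without a late call included Itgav, the integrin alpha v chain, at 1174, 3633 and 4197 by its brightest probe set (log2 difference 0.21), although 2 of its 3 measured sets were called higher (up to 1.57). Src, the kinase needed for ruffling, was at 64.6, 281 and 383, and Mmp14, a membrane metalloproteinase, at 1390, 2064 and 1934, both within 2-fold after the first day.

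The V-ATPase, the proton pump of the ruffled border, has a cytosolic V1 part that splits ATP and a membrane V0 part that conducts protons. Of the V1 genes, 12 were on the array, 9 were measured and 6 were called higher, all 6 gained only late (median 1.12). Atp6v1h was at 465, 602 and 2243 (3.72-fold), Atp6v1d at 697, 1161 and 3410 (2.94-fold), Atp6v1a, the catalytic subunit, at 1954, 2059 and 5809 (2.82-fold), Atp6v1g1 at 1727, 2054 and 4472 (2.18-fold) and Atp6v1f at 1426, 1941 and 4202 (2.16-fold). Atp6v1e1 was at 1404, 1791 and 4826 (2.69-fold) by its brightest probe set, but another of its probe sets had a log2 difference of -0.62, the value that remains without probe sets shared between transcripts. By their brightest probe sets Atp6v1b2 was 1.97-fold and Atp6v1c1 1.61-fold higher, below the threshold, and both were bright at 72 h (5858 and 5505). Of their other measured sets, 1 of Atp6v1b2 (1.20 on the log2 scale) and 2 of Atp6v1c1 (up to 1.32) were called higher. The V1 isoforms of other tissues, Atp6v1b1, Atp6v1c2 and Atp6v1g2, were under the floor on all 3 arrays.

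In the V0 part with its accessory proteins, 10 genes were on the array, 9 were measured, 3 were called higher and 1 lower. Besides Tcirg1, Atp6ap1, an accessory subunit, was at 2644, 1756 and 3781 (2.15-fold) and Atp6v0b at 2014, 2293 and 4782 (2.09-fold). Atp6v0d1 (969 to 1900), Atp6v0e (2499 to 4705) and Atp6ap2 (4263 to 6924) were 1.96-fold, 1.88-fold and 1.62-fold higher. Among the isoforms, Atp6v0e2 was at 110 at 24 h and under the floor at 72 h (at least 3.73-fold lower), Atp6v0a1 went from 390 at 0 h to 47.0 at 24 h and under the floor at 72 h, and Atp6v0a2 was at 133 and 125, while another of its measured probe sets differed by 0.89 on the log2 scale. Dcstamp and Atp6v0d2 were not analysed here.

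**Figure D2:**
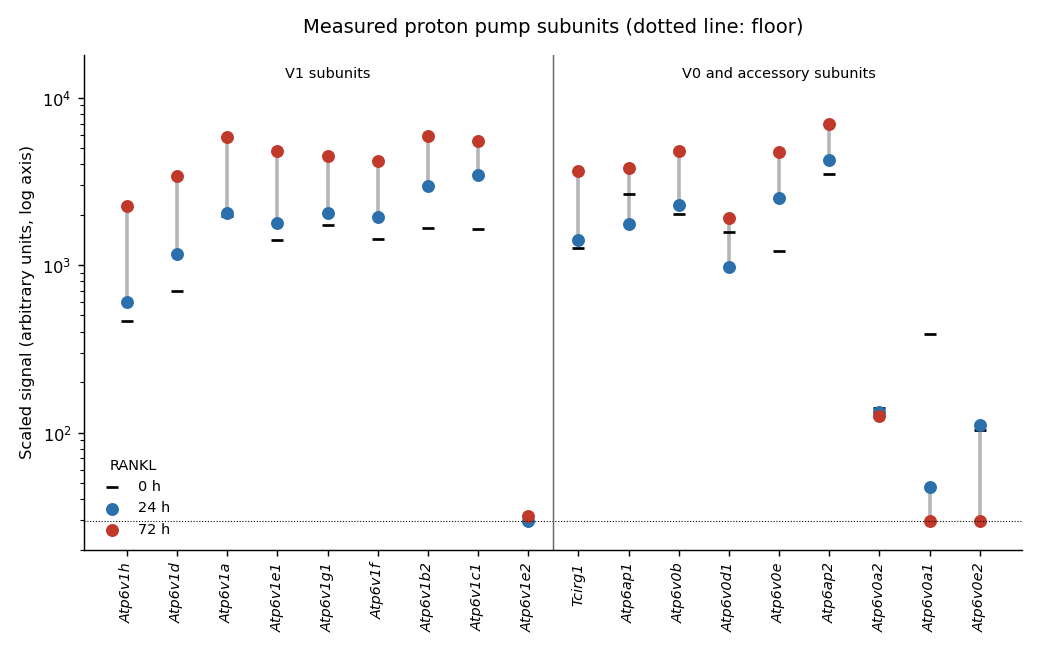
Scaled signal (log axis) of the 9 measured V1 subunit genes and the 9 measured V0 and accessory genes at 0 h (dash), 24 h (blue) and 72 h of RANKL (red), 1 array per time, with values under the floor drawn at it. The 8 bright V1 genes are all higher at 72 h than at 24 h, by 1.61-fold (Atp6v1c1) to 3.72-fold (Atp6v1h), and Atp6v0a1 and Atp6v0e2 lie at the floor at 72 h.

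Lysosomal genes were shifted upward after the first day. Of 35 measured hydrolases and membrane proteins, 8 were called higher and 2 lower (median 0.62, against -0.70 on the first day, a difference that the deposited scale would about cancel), and 6 were gained only late. Glb1, beta-galactosidase, was at 285, 195 and 989 (5.08-fold late), and Smpd1, acid sphingomyelinase, at 230, 256 and 1294 (5.05-fold). Hexa, a hexosaminidase subunit, was at 4198, 2047 and 5784 (2.83-fold), and Cd68, a lysosomal membrane glycoprotein, at 2868, 2438 and 6699 (2.75-fold). The exceptions were the membrane proteins Scarb2 (1203, 743 and 303, 2.45-fold lower) and Lamp1 (7078, 2868 and 1374, 2.09-fold lower, a call lost after trimmed mean scaling). The median for 72 h against 0 h was -0.19, and the 0.77 added by the deposited scale would turn its sign.

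The E-box letters CACGTG, the core bound by Mitf, Tfeb, Tfe3 and Myc, were searched on both strands in RefSeq promoter windows of mouse assembly GRCm38.p6 (250 bases before to 50 after each start). They were present in 8 of 30 lysosomal promoters (26.7%), 3 of 8 V0 promoters (37.5%) and 1 of 5 V1 promoters. Of all 27025 promoters 7.24% held the E-box, and of those of measured genes 10.5%. The E-box was also in 10 of 49 promoters (20.4%) of ribosome biogenesis, a list with a negative late median. The longer variant of the E-box, the M-box TCATGTG, was present in 16.7% of lysosomal promoters, 3.74% of all and 2.11% of those of measured genes. Of the 8 lysosomal genes with an E-box 3 were called higher and 1 lower, Lamp1, which held the most matches (4). Of the 5 with an M-box 1 was higher and 1 lower, Scarb2. A match describes the letters only and is neither a binding site nor a cause. The 100 bases upstream of the start are shown for 3 E-box genes of these lists, picked from those called higher, read 5′ to 3′ on the gene's strand with the E-box in capitals. Naglu, a lysosomal glucosaminidase shown as an example, had signals of 199.8 at 24 h and 487 at 72 h.

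Glb1, chr9:114400978-114401077, plus strand: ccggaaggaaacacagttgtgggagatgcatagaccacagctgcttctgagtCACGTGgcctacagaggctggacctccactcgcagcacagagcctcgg

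Naglu, chr11:101069994-101070093, plus strand: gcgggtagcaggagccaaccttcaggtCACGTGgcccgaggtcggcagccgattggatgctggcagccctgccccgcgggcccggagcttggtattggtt

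Atp6v0b, chr4:117887330-117887429, minus strand: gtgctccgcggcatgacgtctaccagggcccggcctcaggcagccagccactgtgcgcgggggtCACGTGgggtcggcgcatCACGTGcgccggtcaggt

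In the list of SNAREs, synaptotagmins and Rab proteins, 4 of 37 measured genes were called higher and 1 lower (median 0.30), a share near the 6.92% of all measured genes. Besides Rab38 and Snx10, Snap23, a plasma membrane SNARE, was at 298, 206 and 471 (2.29-fold, all 3 measured probe sets called). Rab8b was at 1600, 831 and 312 (2.66-fold lower). Cathepsins and their inhibitors were split: of 16 measured, 2 were called higher and 5 lower, with Ctse at 1510, 237 and 83.6 (2.84-fold lower late), Ctsh at 1745, 727 and 290 (2.51-fold lower) and Cst7, a cystatin inhibitor, at 139 at 24 h and under the floor at 72 h (at least 4.71-fold lower).

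Of 12 measured cell fusion genes, 5 were called higher and 2 lower on the first day. After it 2 were called higher and 1 lower, and 0 were gained only late. Ocstamp, a transmembrane protein needed for fusion, went from under the floor to 318 and 1774 (5.59-fold late), and the other was Cd200. Adam8, a membrane metalloprotease, was at 1044, 2084 and 621 (3.36-fold lower), and its first-day log2 difference of 0.998 put it just inside the late-only class. Cd9 (912, 2041 and 1850), Cd44 (620, 2472 and 2009), Cd47 (1240, 1039 and 1277) and Sirpa (2834, 1631 and 1802) were within 2-fold after the first day. The brightest Sirpa probe set differed by 0.14 on the log2 scale, whereas its other measured sets reached 1.45.

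Osteoclast transcription factors did not gain late. Of 27 measured, 0 were called higher and 7 lower (median -0.29). Mitf, which drives osteoclast and lysosomal genes, was at 485, 1808 and 593 (3.05-fold lower late), Myc at 85.7, 575 and 209 (2.75-fold lower) and Nfkb2 at 219, 633 and 264 (2.40-fold lower). Each was highest at 24 h, and Myc was still 2.44-fold above its 0 h signal at 72 h. The other measured probe sets of Mitf and Nfkb2 both differed by -0.86 on the log2 scale, short of a call. Junb, an AP-1 subunit, was at 499, 906 and 311 (2.91-fold lower), and Batf went from 75.5 at 24 h to under the floor (at least 2.55-fold lower). Fos was at 3198, 4055 and 1987 (2.04-fold lower, a call lost on the deposited scale and after trimmed mean scaling), and Creb1 probe sets disagreed (-1.14 and 0.01). Other factors kept about their 24 h level: Nfatc1, the master regulator, was at 368, 1742 and 1406, Jdp2 at 300, 3734 and 3192, Prdm1 at 204, 629 and 637 and Spi1 at 865, 1497 and 1717. Late differences of Bhlhe40 (913 to 1299), Ppargc1b (427 to 655) and Esrra (236 to 322) were 1.42-fold, 1.53-fold and 1.37-fold.

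Negative regulators of osteoclast formation went both ways after the first day. Of 19 measured, 4 were called higher and 2 lower (median 0.12, against -0.80 on the first day, a difference that the deposited scale would about cancel). The share called lower lies near the 10% of all measured genes. Id3 and Id1, inhibitors of helix-loop-helix factors, were at 61.4 and 586 (9.55-fold) and at the floor and 133 (at least 4.50-fold). Tnfaip3, the ubiquitin-editing inhibitor of NF-kB known as A20, was at 35.9, 64.8 and 231 (3.56-fold). Dusp1, a MAP kinase phosphatase, was at 545, 122 and 320 (2.62-fold), on this scale a partial return after its first-day drop. Its log2 difference of 72 h against 0 h was -0.77, which the 0.77 of the deposited scale would bring to about 0. Irf8, a repressor of osteoclast formation, was at 1184, 179 and 68.7 (2.61-fold lower late), and Socs3, a cytokine signal inhibitor, at 446, 336 and 87.6 (3.83-fold lower, all 3 measured probe sets called). Id1 and Id3 are also targets of BMP signalling, and in the list of BMP, TGF-beta and Id genes 6 of 30 measured were called higher and 2 lower. In that list Ltbp3, which holds latent TGF-beta, was at 103 and 478 (4.64-fold) and Tgfbr2 at 1507, 693 and 2255 (3.25-fold), while Tgfbi, a secreted matrix protein induced by TGF-beta, was at 2508, 5357 and 1314 (4.08-fold lower late, 4 of 4 probe sets).

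Genes of RANK, TNF receptor and NF-kB signalling changed little as a group. Of 27 measured, 2 were called higher and 2 lower (median -0.20), near or below the 6.92% and 10% of all measured genes. Tank, a TRAF-binding protein, was at 145 and 350 (2.42-fold), and Traf2 at 146, 302 and 131 (2.30-fold lower late). Traf6, the adaptor that RANK depends on, was at 64.4 and 134 (2.08-fold) by its brightest probe set, and its others disagreed. Among 18 ITAM receptors and kinases, Oscar was the single gene called higher, against 4 lower. Trem2 was at 1749, 1076 and 352 (3.06-fold lower, a call lost without probe sets shared between transcripts), Clec5a at 257, 669 and 196 (3.41-fold lower) and Blnk, an adaptor of Btk and Tec kinases, at 354, 402 and 174 (2.31-fold lower). Among growth factor receptors and their ligands, Csf1 itself, the gene of M-CSF, was at 162, 64.1 and 417 (6.51-fold higher late), with 3 of 4 measured probe sets called.

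Factors by which osteoclasts act on bone-forming cells were split. Of 14 measured coupling factors, 2 were called higher and 2 lower. Efnb2, the ephrin ligand on osteoclasts, was under the floor at 0 and 24 h and at 272 at 72 h (at least 9.19-fold), with 3 of 3 measured probe sets called. Sphk1, which makes sphingosine-1-phosphate, was at 43.2, 68.5 and 500 (7.30-fold). Vegfc was at 296 at 24 h and 71.3 at 72 h (4.15-fold lower) after rising from under the floor, and Cxcl16 at 823, 1389 and 379 (3.66-fold lower).

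Actin genes as a group stayed level while single members moved far. In the actin ring and podosome list, 7 of 50 measured genes were called higher and 4 lower, and the median was 0.01. Cttn, cortactin, which sits in podosome cores, was at 238, 317 and 1400 (4.41-fold, 4 of 4 probe sets), Rac2, a small GTPase of haematopoietic cells, at 1045, 683 and 2772 (4.06-fold) and Enah, an actin polymerisation factor, at 84.4, 93.9 and 353 (3.76-fold, with 1 of 3 sets at a log2 difference of 0.17). On the other side Coro1a, a leukocyte coronin, was at 2643, 1348 and 216 (6.25-fold lower, both probe sets) and Dock2, the Rac exchange factor of leukocyte migration, at 646, 330 and 60.1 (5.49-fold lower). Among matrix proteases and inhibitors 7 of 23 were called higher and 2 lower. Mmp13, a collagenase, was at 186, 42.7 and 233 (5.44-fold), and Serpinb2, an inhibitor of plasminogen activators, at 48.9, 70.9 and 396 (5.58-fold).

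**Figure D3:**
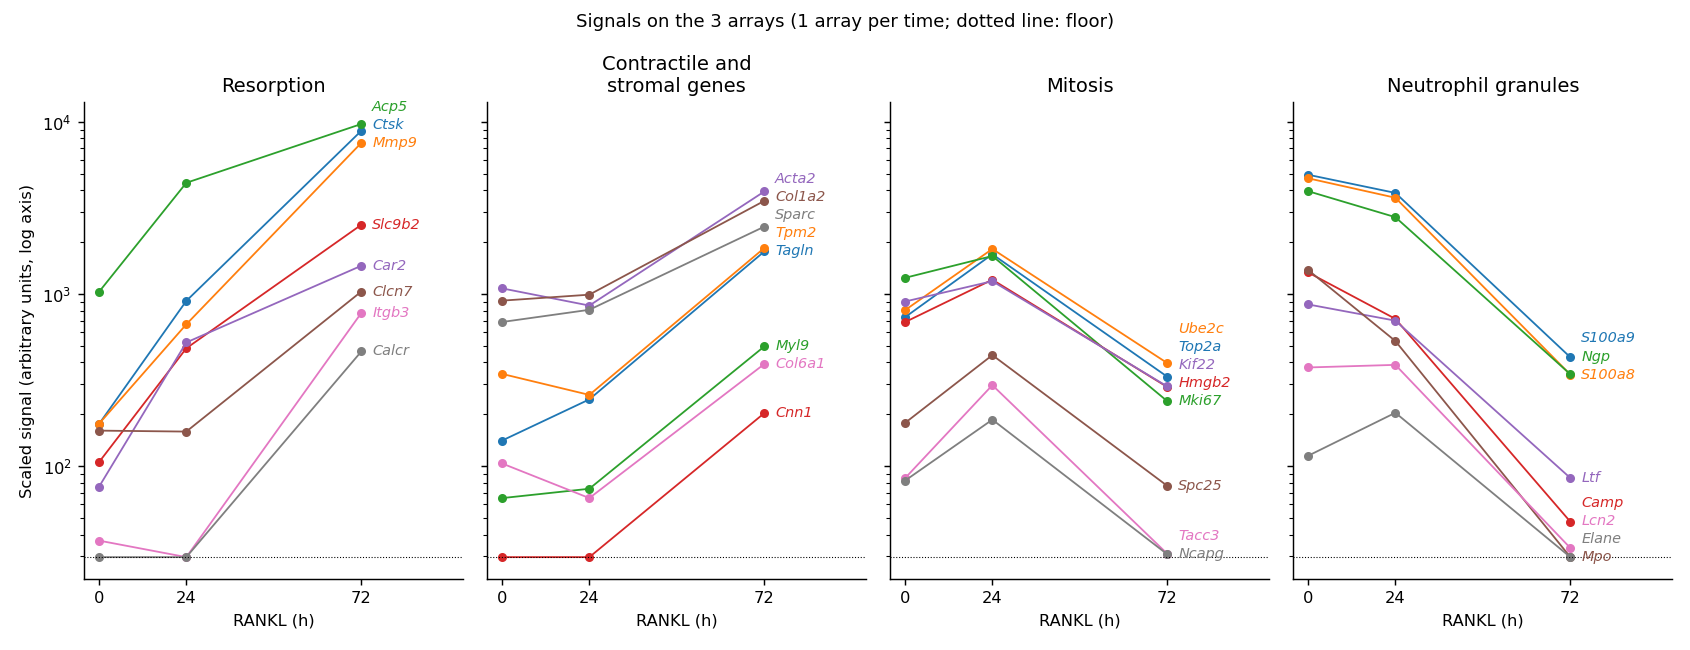
Scaled signals (log axis) at 0, 24 and 72 h of RANKL for 8 genes each of resorption, of the stromal and contractile list, of mitosis and of neutrophil markers (headed neutrophil granules), with 1 array per time and values under the floor drawn at it. The genes of each panel were picked as examples. Ctsk and Mmp9 climb over both intervals, Calcr and Itgb3 appear only at 72 h, the stromal and mitotic genes show most of their change after 24 h, and S100a8 and S100a9 drop from 3618 and 3859 to 339 and 428.

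Contractile and collagen genes were among those gained late. In the list of stromal and osteoblast markers, genes of marrow stromal cells, fibroblasts and osteoblasts, 39 were on the array and 34 measured, and of these 23 were called higher and 1 lower, with a median of 1.504. Gained only late were 20 of them, against a median first-day difference of 0.00. Tagln, an actin-binding protein of smooth muscle, was at 140, 244 and 1764 (7.23-fold), Tpm2, a tropomyosin, at 343, 259 and 1847 (7.14-fold, with 1 of 4 sets at a log2 difference of 0.20), Cnn1, calponin, under the floor at 0 and 24 h and then at 203 (at least 6.86-fold), and Myl9, a myosin light chain, at 65.1, 73.8 and 495 (6.71-fold). The collagen genes were picked out after their values were seen. Col1a1, a chain of type I collagen, was at 205, 380 and 1433, Col1a2 at 913, 989 and 3469, Col5a2 at 468, 725 and 2516 and Col6a1 at 104, 65.1 and 391, each at least 2-fold higher late. So were Sparc (808 to 2458), Fn1 (1031 to 2717) and the mesenchymal transcription factor Prrx1 (32.8 to 199).

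The stromal list summed to signals of 10812, 10540 and 31849 at the 3 times. Bglap, Bglap2 and Runx2, osteoblast genes of the list, were not matched on the array and were not analysed here. Of the members that were, some markers of osteoblasts and of stromal cells were at or near the floor. Ibsp, Lum, Thy1, Twist1 and Tnfrsf11b were under it at both 24 and 72 h, Alpl was at 48.4, Sp7 at 47.1 and Tnfsf11, the gene of RANKL, at 44.3 at 72 h. Igfbp4 was the member called lower (2745, 1187 and 320). Pdgfrb, a receptor of mesenchymal cells, was at 44.2 and 125. The part of stromal cells in the late gains of matrix, actin, TGF-beta and Id genes was not tested.

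**Figure D4:**
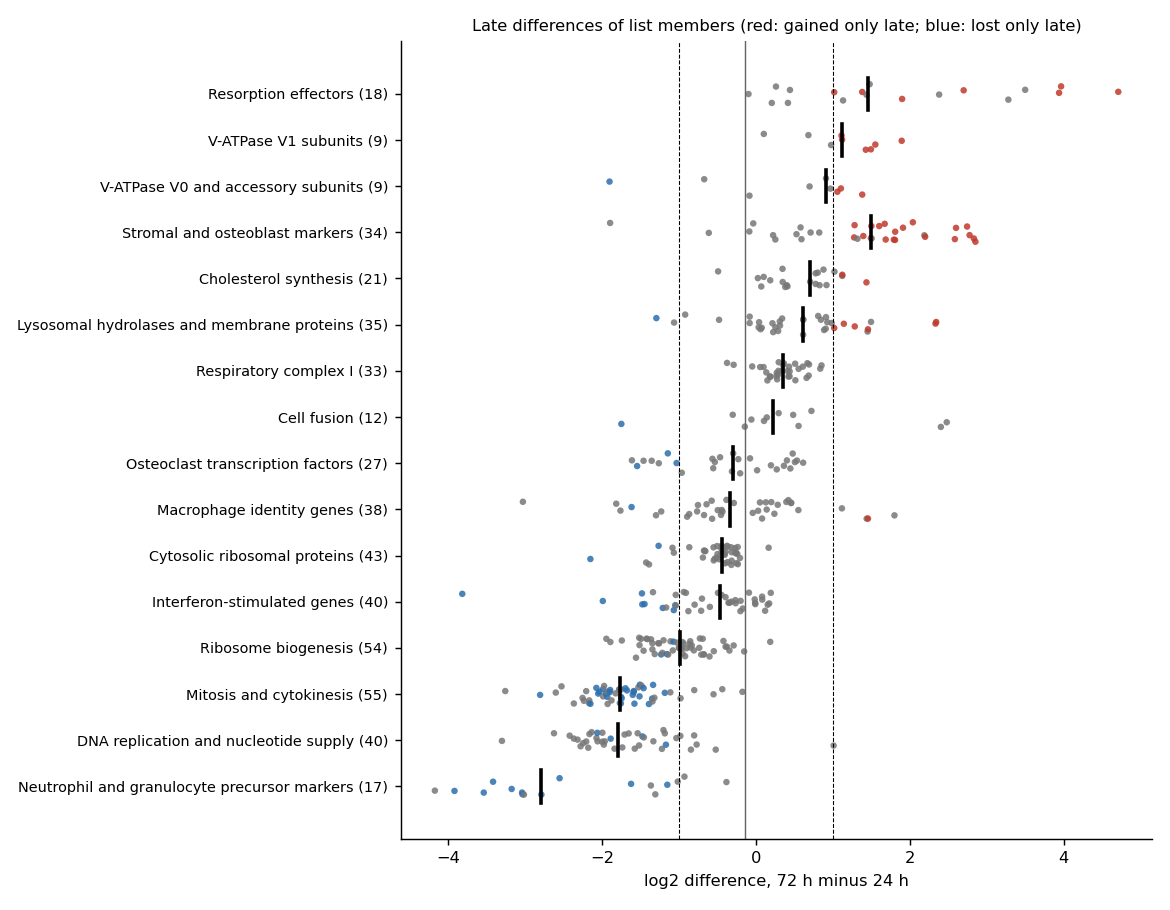
Log2 difference of 72 h minus 24 h for each measured member of 16 gene lists (number measured in brackets), with black ticks at the list medians, a grey line at the median of all measured genes (-0.14) and dashed lines at 2-fold. Red members were gained only after the first day and blue ones lost only after it; resorption (median 1.46) and stromal markers (1.504) lie to the right, and mitosis (-1.77), DNA replication (-1.78) and neutrophil markers (-2.79) to the left.

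Genes of the respiratory complexes shifted upward after the first day, by small amounts. Of 33 measured genes of respiratory complex I, 0 were called in either direction, 30 were above 0 and the median was 0.35, beside a first-day median of 0.78. The 39 genes of complexes II to V likewise had 0 calls, with 34 above 0 and a median of 0.25. Of all 8391 measured genes 3398 were above 0, with a median of -0.14. In the tricarboxylic acid cycle 3 of 20 were called higher and 0 lower (median 0.49), with Pdhb, a pyruvate dehydrogenase subunit, at 679, 1535 and 3368 (2.19-fold late, a call lost when probe sets were averaged). Genes for the use of fatty acids and ketone bodies moved more. Of 29 measured, 6 were called higher and 0 lower. Bdh1, a ketone body dehydrogenase, was at 75.2, 348 and 2049 (5.89-fold, both probe sets), Oxct1, which activates ketone bodies for oxidation, at 1314, 1062 and 3637 (3.42-fold, 4 of 4 probe sets), Etfdh, which passes electrons from fat oxidation to the respiratory chain, at 201, 326 and 1075 (3.30-fold) and Acaa2, a thiolase, at 355, 512 and 1382 (2.70-fold, 3 of 3). In glycolysis Ldhb, the heart-type lactate dehydrogenase, was at 156, 146 and 677 (4.62-fold, 4 of 4 probe sets), whereas Slc16a1, a lactate and pyruvate transporter, was at 143, 604 and 156 (3.87-fold lower late).

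Cholesterol synthesis was higher after the first day, with 20 of 21 measured genes above 0, 4 called higher and 0 lower (median 0.71, against -0.80 on the first day). Msmo1, a sterol oxidase, was at 540, 309 and 838 (2.71-fold) and Idi1, isopentenyl isomerase, at 559, 214 and 467 (2.18-fold, both probe sets). The desaturase Scd2 was at 952, 448 and 1473 (3.28-fold, 3 of 3). The list's median for 72 h against 0 h was -0.06, a value that the 0.77 of the deposited scale would make positive. In iron and metal handling, 7 of 23 were called higher and 2 lower. Tfrc, the transferrin receptor that imports iron, was at 1664, 2206 and 5340 by its brightest probe set (2.42-fold, 3 of 3 called), and Fech, which inserts iron into heme, at 486, 446 and 1159 (2.60-fold, 3 of 3). The list of serine, one-carbon and tRNA charging genes moved both ways. Of 38 measured, 6 were called higher and 5 lower (median -0.09). The higher ones included Ddit3, a stress transcription factor, at 120, 35.9 and 130 (3.61-fold), Chac1, a glutathione-degrading enzyme, at 41.5 and 139 (3.35-fold) and Phgdh, the first enzyme of serine synthesis, at 104 and 267 (2.57-fold, with 2 of 4 probe sets called). Of the lower ones Shmt1, a one-carbon enzyme, was at 42.2, 231 and 45.3 (5.10-fold lower late).

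Cell division genes went down as a block. In the mitosis list 50 of 55 measured genes were called lower and 0 higher, with a median of -1.77, and the first-day median had been 0.89. Of the 50, 26 were lost only late, because their first-day difference stayed within 2-fold, and 24 of the 55 had been called higher on the first day. Mki67, the proliferation antigen, was at 1238, 1660 and 238 (6.98-fold lower late), Top2a, topoisomerase II alpha, at 730, 1699 and 330 (5.15-fold), Spc25, a kinetochore protein, at 178, 441 and 76.6 (5.75-fold), and Tacc3, a spindle protein, at 84.7, 295 and 30.9 (9.55-fold). Another measured probe set of Spc25 differed by only -0.28 on the log2 scale, and 1 of the 3 of Tacc3 by -0.45. Incenp, of the chromosomal passenger complex, was at 1452, 1077 and 280, and Kif22, a chromosome kinesin, at 902, 1185 and 290. Every one of these 6 ended below its signal at 0 h. The mitotic list as a whole had a median of -0.75 for 72 h against 0 h, which the 0.77 of the deposited scale would bring to about 0. On the first day that scale adds 0.73, which would take Mki67 (first-day log2 difference 0.42) out of the late-only class. How many of the 26 would remain in it was not counted.

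DNA replication genes had the larger first-day rise. Of 40 measured, 34 were called lower late and 1 higher (median -1.78), and 32 had been called higher on the first day (median 1.53), so 4 were lost only late. Cdc6, a licensing factor, was at 54.5 and 291 and then under the floor (at least 9.84-fold lower), Pole, a polymerase subunit, at 56.3, 188 and 30.6 (6.16-fold), and Mcm6, a helicase subunit, at 468, 2291 and 428 (5.35-fold, both probe sets). Chaf1b, a chromatin assembly subunit, was the exception at 65.7, 161 and 324 (2.02-fold higher late). The G1 regulators were mixed. Ccnd1, cyclin D1, was at 233, 834 and 292 (2.86-fold lower, 3 of 3), while Ccnd2, cyclin D2, was at 139, 97.9 and 480 (4.91-fold higher, 5 of 5 probe sets). Neutrophil precursors also divide, and markers of that lineage dropped over the same interval, and their part in the cell cycle difference was not tested.

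Promoters of the mitotic genes shared sequence features. The cell cycle homology region (CHR, letters TTTGAA) was present on either strand in 32 of 45 promoter windows of the list (71.1%), against 18.1% of all promoters and 11.5% of those of measured genes. The NF-Y box CCAAT was in 34 of 45 (75.6%), against 37.9% of all promoters, and both were in 28 of 45 (62.2%), against 7.12%. The NF-Y box alone is not particular to this list. It was in 16 of 17 promoters of cholesterol synthesis (94.1%), a list that was higher late, and in 61.8% of DNA replication promoters. The CHR matches lay at a median of 17 bases upstream of the start, and 34 of 43 fell between 100 bases upstream and 50 downstream. DNA replication promoters held the CHR less (11.8%) but the E2F letters TTTNNCGC more (11 of 34, 32.4%). Of all promoters 5.27% held the E2F letters, and of those of measured genes 9.01%. The 100 bases upstream of the start are shown for 4 mitotic genes, with both motifs on either strand in capitals. They were picked from the genes called lower that hold both motifs within these bases.

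Top2a, chr11:99024190-99024289, minus strand: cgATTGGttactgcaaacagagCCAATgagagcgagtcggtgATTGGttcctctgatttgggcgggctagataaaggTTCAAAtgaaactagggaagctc

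Ube2c, chr2:164769829-164769928, plus strand: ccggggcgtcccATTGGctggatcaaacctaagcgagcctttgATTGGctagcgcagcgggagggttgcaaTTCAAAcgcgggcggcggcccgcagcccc

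Hmgb2, chr8:57511743-57511842, plus strand: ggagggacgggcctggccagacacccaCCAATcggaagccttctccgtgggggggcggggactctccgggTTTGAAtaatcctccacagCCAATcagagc

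Kif22, chr7:127042421-127042520, minus strand: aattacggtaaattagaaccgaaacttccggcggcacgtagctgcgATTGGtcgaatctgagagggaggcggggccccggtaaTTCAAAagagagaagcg

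In each of the 4 the CHR stands close to the start and at least 1 NF-Y box lies upstream of it. Ube2c, the ubiquitin-conjugating enzyme of the anaphase-promoting complex, was at 803, 1824 and 396, and Hmgb2, a chromatin protein, at 685, 1209 and 288.

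**Figure D5:**
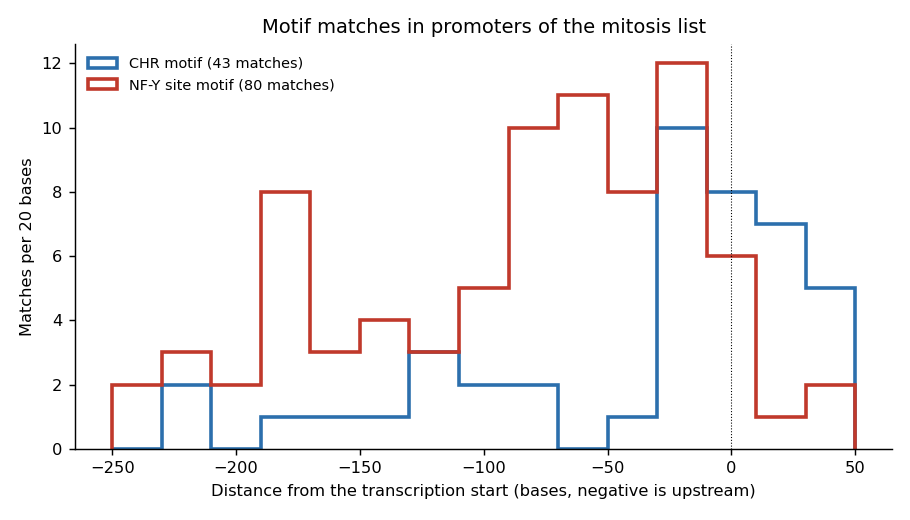
Number of CHR matches (blue, 43) and NF-Y box matches (red, 80) per 20 bases in the 45 promoter windows of the mitosis list, by distance from the transcription start in bases. The CHR matches gather around the start, and the NF-Y box matches lie farther upstream with a median of -69.5.

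In ribosome biogenesis 25 of 54 measured genes were called lower and 0 higher (median -0.98), and 43 had been called higher on the first day (median 1.40). Fbl, fibrillarin, was at 717, 2601 and 885 (2.94-fold lower late, both probe sets), Nolc1, a nucleolar phosphoprotein, at 97.4, 547 and 164 (3.34-fold) and Polr1e, a subunit of RNA polymerase I, at 36.5, 160 and 43.1 (3.70-fold). The list stayed above its 0 h level, with a median of 0.39 for 72 h against 0 h. Of 43 cytosolic ribosomal proteins 6 were called lower and 0 higher (median -0.43), and of 70 mitochondrial ribosomal proteins 1 was called lower and 0 higher (median -0.24). The shares of these 2 protein lists lie near or below the 10% of all measured genes called lower. Heat shock proteins were divided, with 7 of 32 lower and 2 higher. The chaperone Hsph1 was at 351, 954 and 229 (4.16-fold lower, both probe sets), and the small heat shock protein Hspb1 at 127, 225 and 989 (4.3996-fold higher, both probe sets).

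Interferon-stimulated genes lost signal after the first day in part. Of 40 measured, 12 were called lower and 0 higher, 8 of them lost only late, with a median of -0.47. On this scale the first-day median was also -0.47, and the 0.73 added by the deposited scale would turn its sign. Ifitm1, a membrane protein that blocks virus entry, was at 966, 1501 and 107 (14.1-fold lower late). Bst2, tetherin, was at 245, 198 and 49.9 (3.97-fold), Ifitm3 at 2844, 3510 and 1259 (2.79-fold) and Ifih1, the RNA sensor MDA5, at 116, 96.1 and 34.6 (2.78-fold). Ifitm1 stands far from the next member of the list. Genes such as Irf7 (174, 56.8 and 49.5), Rsad2 (184, 55.3 and 48.2) and Irf1 (808, 243 and 265) had reached their low level by 24 h and differed by less than 2-fold after it; these 3 were picked out after their values were seen.

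The interferon response element core GAAANNGAA was found in 20 of 34 promoter windows of this list (58.8%), against 8.57% of all promoters and 7.07% of those of measured genes. Of the 20 genes with a match, 7 were called lower and 0 higher, beside 12 lower of 40 measured in the list. Ifitm1 was not among the 20. The core is shown in capitals, with overlapping matches joined, in the 100 bases upstream of 3 members, picked from those called lower with a match there. Oas1a, which makes the activator of RNase L, was at 477, 411 and 197, Gbp3, a guanylate-binding GTPase, at 73.9, 61.03 and under the floor, and Igtp, an immunity-related GTPase, at 179, 83.9 and 40.8.

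Oas1a, chr5:120907526-120907625, minus strand: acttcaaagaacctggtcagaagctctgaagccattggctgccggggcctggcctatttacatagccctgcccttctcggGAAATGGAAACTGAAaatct

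Gbp3, chr3:142559944-142560043, plus strand: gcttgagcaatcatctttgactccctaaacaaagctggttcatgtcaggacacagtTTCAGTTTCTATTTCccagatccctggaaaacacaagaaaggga

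Igtp, chr11:58199456-58199555, plus strand: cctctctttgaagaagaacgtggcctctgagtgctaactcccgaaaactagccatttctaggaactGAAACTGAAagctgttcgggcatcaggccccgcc

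Antigen presentation and innate sensing also went down in part. Of 11 MHC class II genes 3 were called lower and 0 higher, with H2-Aa at 468, 169 and 45.3 (3.73-fold lower late) and H2-DMa, the peptide exchanger, at 349, 183 and 57.6 (3.18-fold); both calls were lost with a floor at the 60th percentile. Of 28 innate sensing genes 6 were lower and 0 higher. Pycard, the inflammasome adaptor ASC, was at 1134, 1312 and 386 (3.40-fold, a call lost when probe sets were averaged) and Irf5 at 460, 327 and 127 (2.57-fold). Among cytokines, chemokines and their receptors 10 of 34 were lower and 2 higher. Cxcr4, the receptor that retains cells in marrow, was at 1626, 945 and 361 (2.62-fold lower), Ifngr1, an interferon gamma receptor chain, at 617, 551 and 169 (3.27-fold lower) and Ccr1, a chemokine receptor of osteoclasts, at 1355, 1163 and 2948 (2.54-fold higher, both probe sets).

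Macrophage identity genes had done most of their falling before 24 h. Of 38 measured, 27 were called lower and 2 higher on the first day (median -1.77), whereas after it 6 were lower and 4 higher (median -0.33). Stab1, a scavenger receptor, was at 3591, 391.9 and 111 (3.52-fold lower late) and Fcgr2b, the inhibitory Fc receptor, at 4013, 1860 and 550 (3.38-fold, 4 of 4 probe sets). Arg1, arginase, was at 1032, 493 and 50.8 (9.71-fold lower late). Gas6, a ligand of TAM receptors, was at 4060, 177 and 482 (2.72-fold higher late) and Cd5l at 762, 58.5 and 204 (3.49-fold higher), so part of the first-day loss of these genes was reversed.

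Markers of neutrophils and their precursors formed the list with the lowest median of the 58 lists, -2.79. Of 20 on the array, 17 were measured, 15 were called lower and 0 higher, and 10 were lost only late. Camp, an antimicrobial granule peptide, was at 1334, 716 and 47.5 (15.1-fold lower late), Lcn2, a siderophore-binding protein, at 374, 387 and 33.4 (11.6-fold), S100a8 at 4696, 3618 and 339 (10.7-fold) and S100a9, its calprotectin partner, at 4924, 3859 and 428 (9.01-fold). Mpo, myeloperoxidase of primary granules, was at 1380 and 532 and then under the floor (at least 18.0-fold lower), and Elane, neutrophil elastase, at 114, 204 and under the floor (at least 6.90-fold lower). The 2 measured members within 2-fold were Lyz2, shared with macrophages, at 10966, 8632 and 6629, and Mmp8, a neutrophil collagenase, with a late log2 difference of -0.93. The summed signal of the list was 34207, 24009 and 8531. The loss of this list coincided with that of the interferon, innate and cell cycle genes above, and its part in those was not tested.

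Lists of other cells were small. Of 16 megakaryocyte and platelet genes on the array 13 were measured, with 2 higher and 2 lower, and Ppbp was at 1522, 494 and 119 (4.14-fold lower late). B cell markers had 2 of 7 measured members lower, Blnk and Ighm, and the Ighm probe sets disagreed. Of 15 erythroid genes 5 were measured and the one called was Tfrc, and of 14 mast cell and basophil genes 4 were measured with Mcpt8 called higher (at the floor, then 87.7). Endothelial markers had 1 of 8 lower, Cd34, and adipocyte markers 0 of 5 in either direction.

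Reversals, genes called one way on the first day and the other way after it, share the 24 h array in both differences and were described by their signals at all 3 times. Slc6a4, the serotonin transporter, was at 43.6, 811 and 76.1 (10.7-fold lower late), and Mdn1, a ribosome assembly ATPase, at 102, 304 and 46.8 (6.48-fold lower). Cav1, caveolin 1, was at 175, 4171 and 1506 (2.77-fold lower). In the other direction Cd84, a homophilic receptor of the SLAM family, was at 480, 142 and 910 (6.402-fold higher), Il13ra1, a receptor chain for interleukin 13, at 167, under the floor and 239 (at least 8.08-fold higher, 4 of 4 probe sets) and Retreg1, a receptor for autophagy of the endoplasmic reticulum, at 457, 212 and 1145 (5.39-fold higher, both probe sets).

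Across the classes as a whole, 344 of the 448 gained genes and 373 of the 431 lost genes had a promoter in the table. The CHR was in 10.5% of gained and 18.5% of lost promoters, against 11.5% of those of measured genes, and the E2F letters in 2.91% and 11.8%, against 9.01%. The E-box was in 7.27% of gained and 9.65% of lost promoters, against 10.5% of measured genes. The AP-1 letters TGANTCA were in 6.98% and 4.29%, against 5.22%. These shares describe the letters within the windows searched. The gene lists covered 103 of the gained and 92 of the lost genes, so most genes of both classes belong to no list used here. Of the gained genes 200 had 2 or more measured probe sets, in 105 all of these were called, and in 10 probe sets disagreed in direction. For lost genes the numbers were 173, 51 and 23. At a floor of the 60th percentile the calls of Id1, Cd5, Atp6v0e2, Cst7, Irf8, Pdgfrb, Polr1e, Ifih1, Ddit3, Chac1, Cd34, Ighm and Traf6 were lost. With the probe sets of a gene averaged, those of Atp6v0b, Atp6v1e1, Atp6v1g1, Creb1, Enah, Ighm, Rab8b, Phgdh and Traf6 were lost.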

How the data were processed

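Gene expression was measured on 3 Affymetrix arrays, 1 each at 0, 24 and 72 h of RANKL, with biotin-labelled cRNA from 5 µg total RNA per the labels. The deposited values are linear intensity signals, 1 per probe set, made with MAS5 per the submitters' processing notes; its version and scaling target are not given in the sources used here. Of 22690 probe sets 64 were controls, and of the other 22626, 20380 had 1 gene symbol, 691 several and 1555 none in the platform annotation; 20351 single-symbol sets matched a reference gene by identifier. From the deposited signals, log2 values were centred on each array's median, values under the floor (40th percentile of gene probe sets) were set to it, and each gene took the values of its brightest single-symbol probe set (by mean log2 signal). The call was a 2-fold difference. With 1 array per time there was no test, and precision is limited by the number of arrays. A gene moving under 2-fold from 0 to 24 h counted as gained or lost only late.

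The members, the 58 gene lists and the motifs were chosen with earlier results of these data known, so no list supports its own direction. Named genes were, of those measurable at both times, the 12 highest and 12 lowest; the 6 brightest from or to the floor; the 10 largest each way gained or lost only late; the 5 largest each way among reversals; up to 4 called members each way per list; and any member of the resorption, V-ATPase, fusion and transcription factor lists. Genes outside this rule (promoter examples, list members at or near the floor, and Col1a1, Col1a2, Col5a2, Col6a1, Sparc, Fn1, Prrx1, Incenp, Irf7, Rsad2 and Irf1) are given as examples, chosen after their values were seen. Promoter windows are RefSeq's for GRCm38.p6, with the first listed start of each gene. The scripts were tested on simulated data with late changes of 4-fold or more put into genes well above the floor. Changes near 2-fold, dim genes and the late-only classes were not covered by that test. Alternatives were other floors, scalings, fold thresholds, probe set rules and definitions of the first-day limit. Python 3.11.15, numpy 2.4.6, pandas 2.3.3 and matplotlib 3.10.9 were used.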

Additional observations from a re-analysis of the deposited data

Results flagged for a closer look

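Outside the gene probe sets, the array carries 3 control probe sets against the mouse transferrin receptor, placed along the transcript from the 5' to the 3' end, and all 3 were higher at 72 than at 24 h. The 3' set was 8.91-fold higher, the 5' set 10.9-fold and the middle set 12.4-fold. The 3 gene probe sets of Tfrc, the same transcript, were 2.42-fold, 8.66-fold and 16.4-fold higher. The brightest of these, on which the value given for Tfrc rests, had the smallest difference.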

How the results depend on the processing

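Counts of calls moved by over 1.5 times with other floors and folds, and the count lost only late also moved with the deposited scale. Under a 20th percentile floor 981 genes were higher, 1267 lower and 705 lost only late, and under a 60th percentile floor 364 were higher, 292 gained only late and 262 lost only late. Without a floor, on log2(signal + 1), the counts were 1350 higher, 1700 lower, 745 gained only late and 919 lost only late. At 1.5-fold they were 1193, 2032, 685 and 795, and at 3-fold 225, 238, 201 and 164. On the deposited scale 211 genes were lost only late. The following 2 definitions were chosen after seeing the data. With a first-day log2 difference under 0.5, 280 genes were gained and 190 lost only late, and with 72 h also 2-fold from 0 h, 202 were lost only late. Trimmed mean scaling, quantile normalization, averaged probe sets and leaving out probe sets shared between transcripts kept the 4 counts within 1.5 times. Higher genes were 40.9% of the calls, and 36.99% to 48.6% over the alternatives. Of 2289 alternative values of named genes, 202 moved by at least the technical error. Among named genes with a late call 1 value changed sign, that of Atp6v1e1 (-0.62 without probe sets shared between transcripts). Sign changes of named genes without a call were not counted. Of 458 alternative list medians 12 moved by more than the technical error, in lists of immune, dendritic and other cells and of Notch and Wnt genes. No paired analysis was possible because each time has 1 array. Signal near the floor limits the dim genes, and only replicate cultures could give an error that covers culture variation.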
